A study of Mus musculus with 6 samples.

Results

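Tmprss2, Ripk4, Synj1, Itsn1, Vps26c, Bace2, Hunk and Ttc3 are 8 protein-coding genes of distal mouse chromosome 16 that act in membrane traffic, proteolysis or signalling. They were picked by gene symbol out of 55487 genes, from the stretch that is present in an extra copy in Ts1Cje mice, and partly because several of them lay far from 1.5-fold between the genotypes. Their fold changes are therefore given as a description, without a test. Poly(A) RNA was sequenced from cells grown out of mouse embryonic stem cells (ESCs), and all samples were taken after 4 days of induction toward primitive macrophage progenitors with FGF2, BMP-4, activin A and VEGF, from ESCs kept with LIF and serum replacement. One group came from ESCs of Ts1Cje mice (3 samples) and the other from ESCs of wild-type mice (3 samples). Ts1Cje is a Down syndrome model in which a distal piece of chromosome 16 is carried in addition to the normal pair, joined to the end of chromosome 12, where some sequence is known to be lost. The samples are numbered as lots, and although the design text speaks of different cells, nothing says whether lots were separate cultures, lines or clones, so the p-values take in only sample-to-sample spread that could be technical in origin. The design asks why microglia, the macrophages of the brain, are fewer in Ts1Cje embryos.

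Endocytosis pulls pieces of plasma membrane into clathrin-coated vesicles. Scaffold proteins such as intersectin gather the coat, and synaptojanin removes phosphoinositides so that the coat can come off. Cargo that should return to the surface is then sorted on endosomes by retromer and by the related retriever complex. Membrane-anchored proteases such as TMPRSS2 and BACE2 cut other proteins at or near these membranes. RIPK4, HUNK and TTC3 act in signalling, the first 2 as kinases and TTC3 as a ubiquitin ligase.

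Libraries held 16577065 to 19010856 counts. Of all genes, 17315 had enough counts to be tested, and 43.8% of them differed between the genotypes by edgeR's quasi-likelihood test (adjusted p below 0.05), 23.3% higher and 20.5% lower in Ts1Cje. The bounds used for the extra copy were 90225680 and 97962622 on chromosome 16 of mm10, reaching from behind the start of Sod1 to the end of Zbtb21, and 76 of the 185 genes listed there were tested, all 8 described here among them. Of the other 68 tested genes of the segment, 43 rose, 5 fell and 20 did not pass, and their median log2 fold change was 0.48, against -0.01 over all genes tested. Their median deviation per library was 0.49 ± 0.03 in Ts1Cje and 0.01 ± 0.01 in wild-type (log2, SD, n = 3 each). The 2-sided exact permutation test gave p = 0.1, and 3 against 3 libraries cannot give less. Wild-type replicate 1 differed more from the other wild-type libraries (chi-square over degrees of freedom 13.2 and 16.8) than those did from each other (4.53). Ts1Cje pairs lay between 8.34 and 9.85. Of 13 primitive macrophage progenitor markers 8 were tested, and 3 rose, 3 fell and 2 did not pass (75% called). Kit rose to 165.8 ± 19.8 CPM in Ts1Cje, against 59.7 ± 21.4 CPM in wild-type. Runx1, itself a gene of the segment, rose to 26.8 ± 11.8 CPM, against 7.70 ± 0.619 CPM, and Gata1 to 3.53 ± 1.68 CPM, against 0.506 ± 0.242 CPM. Tal1 fell to 6.97 ± 3.96 CPM in Ts1Cje, against 81.4 ± 12.2 CPM in wild-type. Gata2 fell to 4.87 ± 1.31 CPM, against 29.1 ± 7.26 CPM, and Itga2b to 2.735 ± 0.387 CPM, against 9.31 ± 3.20 CPM. The growth factor receptor gene Csf1r did not pass, with 18.1 ± 2.12 CPM in Ts1Cje and 14.3 ± 1.47 CPM in wild-type. Ptprc and Cx3cr1, genes of later macrophages, had 0 counts in all 6 libraries, Adgre1 had 0 counts in Ts1Cje and 1 in wild-type, and Itgam had 0 counts in Ts1Cje and 5 in wild-type.

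In CPM (counts set relative to the size of each library, with TMM scaling between libraries, and not divided by gene length), the 8 genes spread from far above the 1.5-fold that the extra copy alone would give to below wild-type. Tmprss2, Ripk4 and Synj1 were at 11.3-, 5.21- and 3.68-fold. Vps26c was at 1.55-fold, next to the copy number. Bace2 was at 1.24-fold and Itsn1 at 1.146-fold. Ttc3 was at 1.02-fold and Hunk at 0.838-fold, so for these 2 genes no gain in level accompanied the extra copy. In 6 of the 8 genes every Ts1Cje library lay above every wild-type library, which was also so for 28.8% of all tested genes. Hunk had every Ts1Cje library below every wild-type library, as did 26.4% of tested genes, and 55.2% did not overlap in either direction. Because this comparison chose the genes, nothing is read from these counts.

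**Figure D1:**
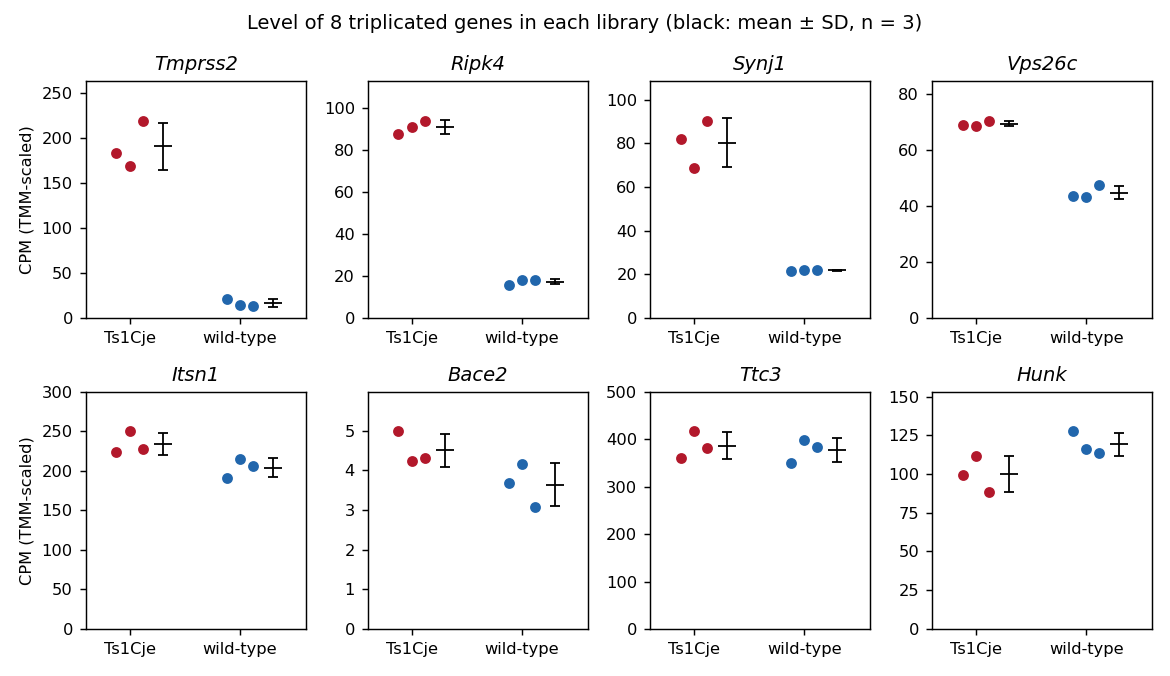
Level of each of the 8 genes in CPM (vertical axis, from 0, a scale of its own per gene) in the 3 Ts1Cje and 3 wild-type libraries, with points for libraries in order of replicate number and the black bar for mean ± SD. Tmprss2, Ripk4, Synj1 and Vps26c stand clear of wild-type, the libraries of Ttc3 overlap, and Hunk is lower in Ts1Cje.

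Tmprss2 encodes a serine protease anchored in the plasma membrane of epithelial cells, known for cutting viral surface proteins. It lies on the minus strand of chromosome 16 from 97564682 to 97611195 (ENSMUSG00000000385). It had 183, 169 and 219 CPM in Ts1Cje replicates 1 to 3, against 21.6, 14.9 and 13.98 CPM in wild-type replicates 1 to 3. The groups lay far apart, and wild-type replicate 1 was the highest of its group. The log2 fold change was 3.50 ± 0.18 (SE), the highest of the 76 tested genes of the segment, and 2.92 above that of 1.5-fold. Only 0.901% of all tested genes had a higher one. Without wild-type replicate 1 it was 3.72.

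Ripk4 encodes a kinase of the RIP family needed for keratinocyte differentiation. It lies next to Tmprss2, on the same strand, from 97741933 to 97763787 (ENSMUSG00000005251). It had 87.6, 91.1 and 94.2 CPM in Ts1Cje, against 15.9, 18.1 and 18.4 CPM in wild-type. The libraries within each genotype differed little. The log2 fold change was 2.38 ± 0.09, which is 1.80 above 1.5-fold and the fifth highest of the segment.

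Synj1 encodes synaptojanin 1, the phosphoinositide phosphatase that helps clathrin coats come off. It lies near the other end of the segment, on the minus strand from 90936092 to 91011308 (ENSMUSG00000022973). It had 82.0, 68.5 and 90.4 CPM in Ts1Cje, against 21.6, 21.9 and 22.0 CPM in wild-type. The wild-type libraries were almost level, and Ts1Cje replicate 2 was the lowest of its group. The log2 fold change was 1.88 ± 0.11, or 1.29 above 1.5-fold.

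Vps26c, also known as Dscr3, encodes a subunit of retriever. It had 69.2, 68.8 and 70.6 CPM in Ts1Cje, against 43.8, 43.2 and 47.5 CPM in wild-type. The groups were well separated. Its log2 fold change of 0.63 ± 0.07 was 0.05 above that of 1.5-fold. The gene spans 94497783 to 94526830 on the minus strand (ENSMUSG00000022898).

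Itsn1 encodes intersectin 1, a scaffold of endocytic pits whose long form also activates CDC42. It had 224, 250 and 227 CPM in Ts1Cje, against 191, 214 and 207 CPM in wild-type. The lowest Ts1Cje library lay just above the highest wild-type library. The log2 fold change was 0.20 ± 0.07, which is 0.39 below that of 1.5-fold. The gene spans 91729281 to 91920597 on the plus strand (ENSMUSG00000022957).

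Bace2 encodes an aspartyl protease related to the beta-secretase BACE1, with pigment cell protein PMEL among its substrates. It was the lowest of the 8 genes, with 91, 71 and 82 counts in Ts1Cje and 68, 77 and 56 counts in wild-type. These counts gave 4.99, 4.23 and 4.30 CPM in Ts1Cje and 3.68, 4.17 and 3.07 CPM in wild-type. The groups were nearly touching. Its log2 fold change was 0.31 ± 0.21, which is 0.28 below that of 1.5-fold, with the widest SE of the 8 genes. The gene spans 97356742 to 97442936 on the plus strand (ENSMUSG00000040605).

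Ttc3 encodes a ubiquitin ligase reported to act on AKT. It had 361, 417 and 381 CPM in Ts1Cje, against 350, 399 and 384 CPM in wild-type. The ranges overlapped almost entirely, and summed counts were 20864 in Ts1Cje and 20857 in wild-type. The log2 fold change was 0.03 ± 0.07, or 0.55 below that of 1.5-fold, and it was the fold change closest to 0 among the 76. The gene spans 94370618 to 94469343 on the plus strand (ENSMUSG00000040785).

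Hunk encodes a kinase related to AMPK. It had 99.7, 112 and 88.6 CPM in Ts1Cje, against 128, 116 and 114 CPM in wild-type. Every Ts1Cje library was lower than every wild-type library, with Ts1Cje replicate 2 close to the wild-type range. The log2 fold change was -0.25 ± 0.09, which is 0.84 below that of 1.5-fold and the seventh lowest of the segment. The gene spans 90386013 to 90499553 on the plus strand (ENSMUSG00000053414).

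The genes did not vary between Ts1Cje libraries in the same way. Tmprss2 and Synj1 were lowest in Ts1Cje replicate 2 and highest in replicate 3, whereas Itsn1, Ttc3 and Hunk were highest in replicate 2. Coefficients of variation of CPM ran from 1.40% for Vps26c to 13.7% for Synj1 in Ts1Cje, and from 0.824% for Synj1 to 24.9% for Tmprss2 in wild-type.

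Compared per transcript length, in the TPM values of the authors' table, which divide by gene length, the order of the 8 genes was not the same in the 2 genotypes. In Ts1Cje, Tmprss2 (75.9 to 96.8 TPM), Ripk4 (77.8 to 84.5 TPM) and Ttc3 (71.2 to 84.2 TPM) stood at the top with overlapping ranges. Vps26c followed at 60.1 to 61.9 TPM. Hunk (34.0 to 43.5 TPM), Itsn1 (30.6 to 34.9 TPM) and Synj1 (27.7 to 36.0 TPM) overlapped in part, and Bace2 was last at 1.76 to 2.02 TPM. In wild-type, Ttc3 was highest (70.9 to 79.2 TPM), followed by Hunk (42.4 to 49.9 TPM), Vps26c (37.9 to 40.5 TPM), Itsn1 (26.8 to 29.5 TPM) and Ripk4 (14.5 to 16.3 TPM), each clear of the next. Synj1 (8.53 to 8.79 TPM) and Tmprss2 (6.005 to 9.73 TPM) overlapped, and Bace2 had 1.22 to 1.70 TPM. In mean TPM, Tmprss2 exceeded 87.4% of tested genes in Ts1Cje and 35.5% in wild-type, Ripk4 86.9% and 50.2%, and Synj1 66.7% and 38.3%.

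RefSeq promoter windows (GRCm38.p6, the build of mm10) reach from 250 bases before to 50 bases after a start annotated by RefSeq. That start can differ from the start of the gene span given above. Windows were found for 6 of the 8 genes, with none for Ripk4 and Bace2. Those of Tmprss2 and Synj1, both far above 1.5-fold, are shown beside those of Ttc3 and Hunk, which showed no gain. They lie at chr16:97611146-97611445 (minus strand), chr16:91011046-91011345 (minus strand, the first by coordinate of 2 annotated Synj1 windows), chr16:94370489-94370788 (plus strand) and chr16:90386147-90386446 (plus strand). The other Synj1 window, chr16:91011259-91011558, reaches further before the start of the Synj1 span given above. The Hunk window lies wholly inside the Hunk span given above. Capitals mark matches, on either strand, to any of 7 short motifs.
Tmprss2: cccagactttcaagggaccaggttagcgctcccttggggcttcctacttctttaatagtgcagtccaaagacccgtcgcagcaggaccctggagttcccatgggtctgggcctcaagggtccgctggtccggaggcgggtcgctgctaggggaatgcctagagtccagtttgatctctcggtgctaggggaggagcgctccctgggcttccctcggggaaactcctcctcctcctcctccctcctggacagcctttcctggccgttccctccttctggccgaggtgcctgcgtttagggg
Synj1: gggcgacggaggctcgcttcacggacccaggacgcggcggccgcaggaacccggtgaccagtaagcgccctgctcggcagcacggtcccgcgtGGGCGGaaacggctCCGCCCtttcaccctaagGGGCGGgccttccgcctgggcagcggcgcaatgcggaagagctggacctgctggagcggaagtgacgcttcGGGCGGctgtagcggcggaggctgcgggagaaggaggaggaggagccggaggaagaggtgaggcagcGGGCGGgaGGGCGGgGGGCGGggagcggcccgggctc
Ttc3: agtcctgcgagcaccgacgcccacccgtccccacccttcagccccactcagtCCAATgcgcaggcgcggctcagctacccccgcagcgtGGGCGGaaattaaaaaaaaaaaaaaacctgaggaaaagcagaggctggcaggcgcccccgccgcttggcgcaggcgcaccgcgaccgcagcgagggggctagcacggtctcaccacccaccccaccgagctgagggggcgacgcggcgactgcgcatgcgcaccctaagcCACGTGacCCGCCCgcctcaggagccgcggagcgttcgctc
Hunk: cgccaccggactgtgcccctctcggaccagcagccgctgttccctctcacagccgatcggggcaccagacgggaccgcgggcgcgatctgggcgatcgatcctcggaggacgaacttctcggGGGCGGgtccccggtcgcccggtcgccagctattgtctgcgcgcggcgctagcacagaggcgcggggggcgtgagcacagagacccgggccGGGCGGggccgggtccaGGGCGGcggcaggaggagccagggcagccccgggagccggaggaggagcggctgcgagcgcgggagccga

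The motifs searched were the GC box GGGCGG, an ETS core CCGGAAG, the E-box CACGTG, the CCAAT box CCAAT, the TATA box TATAAA, a FOX core TGTTTAC and a GATA core AGATAA. Of 32851 promoter windows of the same length, 35.7% held a GC box, 8.86% the ETS core, 7.15% the E-box, 37.4% the CCAAT box, 13.6% the TATA box, 3.65% the FOX core and 11.2% the GATA core. The Tmprss2 window held none of the 7. The first Synj1 window held 7 GC boxes, some of them next to each other, and the other Synj1 window held none of the motifs. The Ttc3 window held 2 GC boxes, 1 E-box and 1 CCAAT box, and the Hunk window held 3 GC boxes. The Vps26c window held 2 ETS cores and 1 GC box, and the Itsn1 window 5 GC boxes and 2 CCAAT boxes. The Tmprss2 window had 13 CpG dinucleotides, against 36 in the first Synj1 window, 34 in that of Ttc3 and 41 in that of Hunk, where the median over all windows was 7. A match describes these letters and says nothing on whether a factor binds.

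Some neighbours in the segment had fold changes close to those of the 8 genes and others did not. Bace2, Tmprss2 and Ripk4 follow each other along the chromosome with gaps of 122 and 131 kb, and their log2 fold changes were 0.31, 3.50 and 2.38. Mx2, which lies between Bace2 and Tmprss2 and was named after its value was seen, stood at 0.46 ± 0.41 (adjusted p = 0.402). Prdm15, a zinc finger gene 27.7 kb beyond Ripk4, stood at 0.19 ± 0.11 (adjusted p = 0.208). Ttc3 and Vps26c lie 28.4 kb apart and stood at 0.03 and 0.63. Dyrk1a, the kinase gene on the other side of Vps26c, rose by 0.33 ± 0.06, and Pigp, which overlaps the start of Ttc3 by 1225 bp on the other strand, stood at 0.27 ± 0.11 (adjusted p = 0.0749).

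Beside Synj1, the cilium gene Cfap298, which ends 0.977 kb away, rose by 1.21 ± 0.10, and Paxbp1 on its other side rose by 0.27 ± 0.06. The transcript 4930404I05Rik, named for its overlap, runs the other way from the start of Synj1, overlaps it by 60 bp, and stood at 0.17 ± 0.11 (adjusted p = 0.258), with 18.9 ± 1.09 CPM in Ts1Cje and 16.8 ± 0.949 CPM in wild-type (SD, n = 3 each). Around Itsn1, the oxidoreductase-like gene Cryzl1 rose by 0.56 ± 0.09 and the ATP synthase gene Atp5o by 0.65 ± 0.08. Around Hunk, the splicing-related gene Scaf4 rose by 0.56 ± 0.06 and the centromere gene Mis18a by 0.44 ± 0.09. Dscam, before Bace2, stood at 0.30 ± 0.25 (adjusted p = 0.352), beside the 0.31 of Bace2. At the borders, Zbtb21 rose by 0.47 ± 0.10 and Sod1, which is not counted in the segment, by 0.83 ± 0.06. All of these are log2 fold changes with SE from edgeR's quasi-likelihood test.

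**Figure D2:**
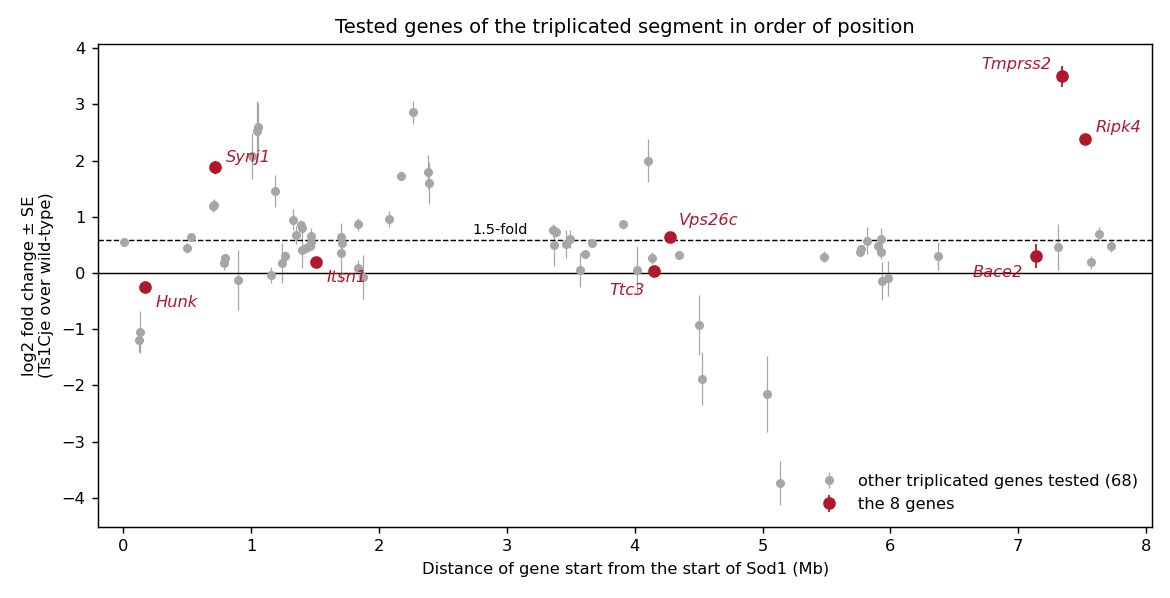
Log2 fold change (Ts1Cje over wild-type, ± SE) of the 76 tested genes of the triplicated segment against the distance of the gene's start from that of Sod1 in Mb, with the 8 genes in red, the other 68 in grey and the dashed line at 1.5-fold. Tmprss2 at 3.50 and Ripk4 at 2.38 lie at the far end beside Bace2 at 0.31, and Hunk at -0.25 lies near the start.

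Annotated overlaps limit some of these counts, since the library kit marked the strand but the sources used here do not say whether counting used it. Besides Pigp and 4930404I05Rik, the overlapping transcripts held 0.404% or less of their partner's counts in either genotype. Counts of Pigp came to 8.33% of those of Ttc3 in Ts1Cje and 7.10% in wild-type. Counts of 4930404I05Rik came to 23.3% of those of Synj1 in Ts1Cje and 76.7% in wild-type. A second gene listed as Atp5o (ENSMUSG00000116933) spans the whole of Itsn1 on the other strand and had 0 counts, so reads in exons that both share are uncertain.

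The partners of Synj1 and Itsn1 moved in both directions. Of 47 genes of the clathrin coat and phosphoinositide cycle, all tested, 17 rose, 8 fell and 22 did not pass, which is 53.2% called beside 43.8% over all tested genes, and the list's median log2 fold change was 0.12, against -0.01 over all genes. The close relatives of both genes rose. Itsn2, the other intersectin gene, had 64.2 ± 6.06 CPM in Ts1Cje and 25.5 ± 1.59 CPM in wild-type (SD, n = 3 each; log2 fold change 1.33 ± 0.10, adjusted p = 7.02e-06). Synj2, the other synaptojanin gene, had 12.7 ± 0.574 CPM in Ts1Cje and 4.11 ± 0.424 CPM in wild-type (1.63 ± 0.16, adjusted p = 3.92e-05). Pip5k1b, a kinase that makes the lipid synaptojanins remove, rose by 3.87 ± 0.27, and the clathrin light chain gene Cltb by 2.55 ± 0.18. Pip5k1b was low in wild-type, with 0.581 ± 0.211 CPM, against 8.58 ± 0.628 CPM in Ts1Cje. Sh3glb1, an endophilin family member, fell by 0.86 on the log2 scale, and Amph, the amphiphysin gene, fell to 19.6 ± 2.67 CPM in Ts1Cje, against 136.9 ± 43.2 CPM in wild-type.

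Genes that work with Vps26c on endosomes rose more often than they fell. Of the 32 genes of retriever, retromer and the WASH complex that were tested, 16 rose and 3 fell, while 13 did not pass, with a median of 0.20 (59.4% called, 43.8% over all genes; 34 of the 35 symbols were found). The other subunits of retriever did not pass. Vps35l stood at 0.14 ± 0.07 (adjusted p = 0.152) and Vps29, shared with retromer, at 0.11 ± 0.10 (adjusted p = 0.425). Of the Vps26c relatives in retromer, Vps26a had 127.3 ± 10.7 CPM in Ts1Cje and 62.8 ± 2.76 CPM in wild-type (1.02 ± 0.08, adjusted p = 9.17e-06), while Vps26b fell by 0.26 on the log2 scale (adjusted p = 0.0164, and 0.0571 without Ts1Cje replicate 1). Washc2, a WASH subunit, rose by 0.70 ± 0.07. The sorting nexin genes Snx12 and Snx17 (SNX17 is the cargo adaptor of retriever) fell by 0.39 and 0.28 on the log2 scale.

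Among secretases and their substrates, the genes around Bace2, all 18 genes were tested, with 9 higher, 3 lower and 6 that did not pass. The median was 0.27, and 66.7% were called, beside 43.8% over all tested genes. Bace1 did not pass, with 65.8 ± 3.82 CPM in Ts1Cje and 71.0 ± 2.91 CPM in wild-type (-0.11 ± 0.08, adjusted p = 0.266). App, the amyloid precursor gene, lies on chromosome 16 before the segment, from 84949685 to 85173766, and had 253 ± 18.1 CPM in Ts1Cje and 93.7 ± 7.95 CPM in wild-type (SD, n = 3 each; 1.44 ± 0.08, adjusted p = 1.82e-06). Itm2b, which encodes a BRI family membrane protein, rose by 1.21 ± 0.08. The metalloprotease gene Adam9 fell by 0.43 on the log2 scale, the receptor gene Notch1 by 1.40 and Aph1b, a gamma-secretase subunit gene named after its value was seen, by 0.61.

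Of the membrane serine proteases and inhibitors listed with Tmprss2, 7 of 20 were tested, and 5 rose, 1 fell and 1 did not pass. The median was 1.99, and 85.7% of the 7 were called, beside 43.8% over all tested genes. The 11 other Tmprss genes of the list held 30 counts or fewer per group, too few to be tested, against 10363 summed counts of Tmprss2 in Ts1Cje and 930 in wild-type. St14, which encodes matriptase, had 157 ± 14.4 CPM in Ts1Cje and 30.6 ± 7.55 CPM in wild-type (2.35 ± 0.17, adjusted p = 2.75e-05). Prss8, whose product prostasin works with matriptase, rose by 2.32 ± 0.12. Their inhibitors rose as well, Spint2 with 226 ± 21.3 CPM in Ts1Cje and 42.9 ± 4.35 CPM in wild-type (2.40 ± 0.10, adjusted p = 6.04e-07) and Spint1 by 1.72 ± 0.11. The hepsin gene Hpn, named after its value was seen, rose by 1.99 ± 0.21. Prss22 fell to 0.559 ± 0.308 CPM in Ts1Cje, against 3.31 ± 1.40 CPM in wild-type.

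For Ripk4, 14 of 19 RIP kinase and epidermal genes had enough counts, and 6 rose, 2 fell and 6 did not pass. The median was 0.75, and 57.1% of the 14 were called, beside 43.8% over all tested genes. Ovol2, an epithelial repressor gene, rose by 3.72 ± 0.34. It was low in wild-type, with 0.707 ± 0.332 CPM, against 9.38 ± 2.01 CPM in Ts1Cje. The RIP kinase genes differed in direction. Ripk1 rose by 0.83 ± 0.11, Ripk3 fell by 1.12 on the log2 scale, and Ripk2 fell by 0.38 (adjusted p = 0.037) with its call lost without Ts1Cje replicate 1 or 3 or wild-type replicate 2 or 3 (adjusted p = 0.0779 to 0.139). Keratinocyte genes were near absent, with Krt5 at 0 counts in all libraries, Krt14 at 4 counts in Ts1Cje and 2 in wild-type, and Trp63 at 8 counts in Ts1Cje and 1 in wild-type.

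Markers of other cell types differed between the genotypes too, and their counts are to be read beside the 43.8% of all tested genes that were called, 23.3% higher and 20.5% lower. All 16 definitive and visceral endoderm markers were tested, and 15 rose and 1 fell (100% called), with a summed level of 1680 to 2300 CPM in Ts1Cje and 498 to 584 CPM in wild-type. Of 12 simple epithelium markers 8 rose and 1 fell (75% called), with 2480 to 2970 CPM in Ts1Cje and 578 to 876 CPM in wild-type. Of 8 pluripotency markers 7 rose and 0 fell in edgeR's test (87.5% called), with 456 to 725 CPM in Ts1Cje and 56.3 to 185 CPM in wild-type. Of 8 epidermis and surface ectoderm markers 3 were tested, with 1 up and 1 down (66.7% called) and 29.3 to 34.7 CPM in Ts1Cje and 13.1 to 29.8 CPM in wild-type. The part of these cell types in the levels of Tmprss2, Ripk4 and their partners was not tested, and in bulk RNA more cells of a type and more RNA per cell cannot be told apart.

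Among trophoblast markers 2 of 7 tested rose and 2 fell (57.1% called, 215 to 323 CPM in Ts1Cje, 759 to 987 CPM in wild-type). Hand1 and Cdx2, named after their values were seen, fell and made up most of the wild-type sum. Hand1 had 17.3 ± 7.93 CPM in Ts1Cje and 589 ± 146 CPM in wild-type, and Cdx2 5.21 ± 2.91 and 208 ± 44.5 CPM. Ascl2 and Krt7 rose, while Elf5, Gcm1, Tpbpa and Prl3d1 held 9 counts or fewer per group. Among neuroectoderm markers 3 of 5 tested rose and 0 fell (60.0% called, 267 to 283 CPM in Ts1Cje, 70.5 to 138 CPM in wild-type). Of 4 tested fibroblast and feeder markers 3 fell and 0 rose (75% called, 13 to 13.8 CPM in Ts1Cje, 61.6 to 166 CPM in wild-type). That wild-type sum came mostly from Pdgfrb (84.1 ± 38.4 CPM) and Col1a1 (24.9 ± 19.1 CPM). In Ts1Cje these had 3.00 ± 0.978 and 0.258 ± 0.018 CPM. Dcn and Lum held 5 counts or fewer per group, and Col3a1 and Postn 23 or fewer. Of 8 tested primitive macrophage progenitor markers 3 rose and 3 fell (75% called, 219 to 241 CPM in Ts1Cje, 160 to 240 CPM in wild-type).

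The list for Hunk holds 24 genes of LKB1 and the AMPK-related kinases, Hunk's family, together with their subunits and partners. Of these, 5 rose, 5 fell and 14 did not pass. The 41.7% called is near the 43.8% over all tested genes, and the median was 0.02, against -0.01 over all genes. Prkaa2, a catalytic AMPK subunit gene, had 98.6 ± 19.3 CPM in Ts1Cje and 24.8 ± 3.24 CPM in wild-type (1.99 ± 0.15, adjusted p = 1.94e-05). Nuak2 rose by 1.70 ± 0.22, whereas its relative Nuak1 fell by 1.56 on the log2 scale and Sik3 by 0.61. Stk11, which encodes the upstream kinase LKB1, fell by 0.21 (adjusted p = 0.0364), and this call was lost without Ts1Cje replicate 1 or 3, without wild-type replicate 2 or 3 and with limma-trend on TPM (adjusted p = 0.0604 to 0.114). Melk stood at 0.02 ± 0.07 (adjusted p = 0.832). The others called, named after their values were seen, were Mark2, Cab39 and Prkag1, which rose, and Mark1 and Brsk1, which fell.

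AKT and its regulators, the pathway of Ttc3, gave 20 tested genes, of which 7 rose and 6 fell and 7 did not pass. The median was 0.08, and 65.0% were called, beside 43.8% over all tested genes. Akt1 rose by 0.30 ± 0.06 (adjusted p = 0.00323). Pik3cb, a PI3-kinase catalytic subunit gene, rose to 52.2 ± 5.84 CPM in Ts1Cje, against 18.5 ± 1.80 CPM in wild-type. Pik3r2, a regulatory subunit gene, fell by 0.36 on the log2 scale. Smurf2, a ubiquitin ligase gene, fell by 0.23 (adjusted p = 0.0341), a call lost without any 1 of the Ts1Cje libraries, without wild-type replicate 2 or 3 and with limma-trend on TPM (adjusted p = 0.0502 to 0.119).

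**Figure D3:**
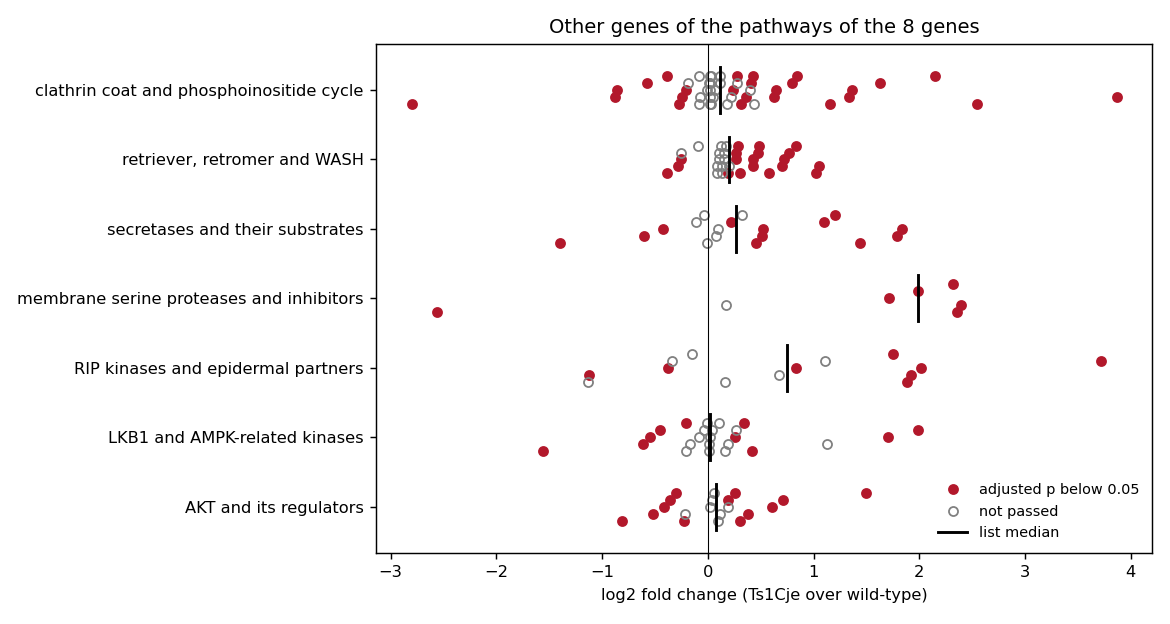
Log2 fold change (Ts1Cje over wild-type) of each tested gene in the 7 pathway lists, without the 8 genes themselves, with filled points for genes past an adjusted p of 0.05, open points for the rest and a bar at the list's median. The medians run from 0.02 for the LKB1 and AMPK-related kinases to 1.99 for the membrane serine proteases and inhibitors.

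Genes elsewhere in the genome with the most similar profile were sought by the root mean square difference of log2 CPM, centred per gene, over the 6 libraries and 17239 genes. For Tmprss2 these were the transcript A530020G20Rik (difference 0.088) and Plaur, the urokinase receptor gene (0.115). A530020G20Rik was low, with 2.51 ± 0.51 CPM in Ts1Cje and 0.145 ± 0.062 CPM in wild-type (log2 fold change 4.06 ± 0.44). At such levels the prior count of 2 shrinks differences of log2 CPM, which limits this match. For Ripk4 they were Vsir, an immune checkpoint gene (0.076), and Enpp5 (0.090). For Synj1 they were Cd55, a complement regulator gene (0.073), and Dact2 (0.075), and for Hunk Marcksl1 (0.025) and A530017D24Rik (0.030). For Tmprss2, Ripk4 and Synj1 the measure is dominated by the difference between genotypes, which their matches share. For Hunk that difference was small, at -0.25. A530017D24Rik did not pass edgeR's test (-0.285 ± 0.193, adjusted p = 0.263). It was low, with 4.70 ± 0.559 CPM in Ts1Cje and 5.72 ± 0.536 CPM in wild-type.

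**Figure D4:**
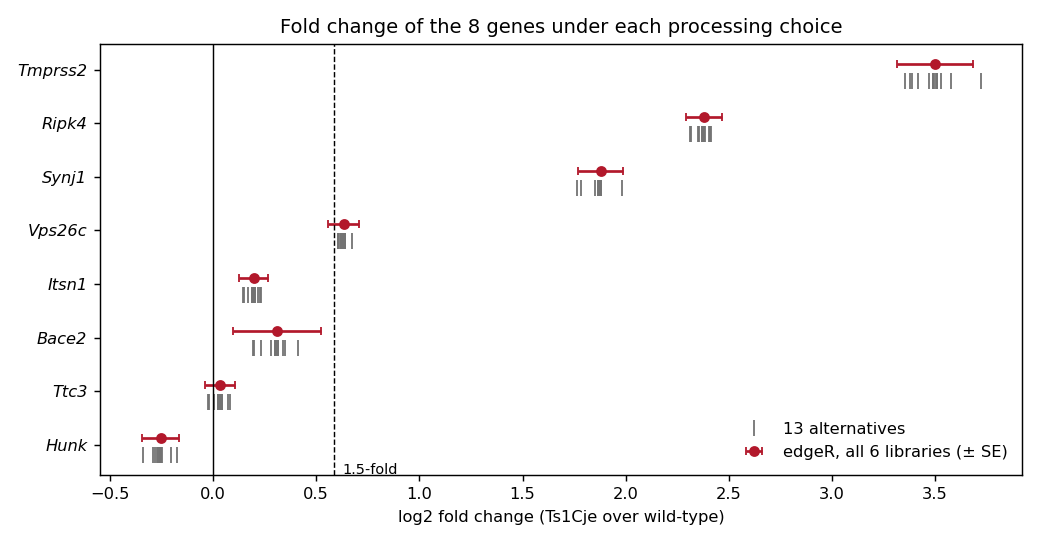
Log2 fold change (Ts1Cje over wild-type) of the 8 genes with all 6 libraries (red, ± SE) and under 13 other processing choices (grey ticks), with the dashed line at 1.5-fold. Tmprss2, Ripk4, Synj1 and Vps26c stay above 1.5-fold, Itsn1 and Bace2 stay between 0 and 1.5-fold, Ttc3 lies on both sides of 0, and Hunk stays below 0.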

How the data were processed

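RNA-seq of 6 mouse ESC-derived samples was analysed from 2 tables. One, as deposited by the authors, holds raw counts for each Ensembl gene, and the other holds the authors' deposited TPM. FastQC 0.11.7 and Trimmomatic 0.38 are named in the submitters' processing notes, as are the aligner HISAT2 2.1.0, the counter featureCounts 1.6.3 and the build mm10. Settings, strand handling in counting and the step to TPM were not stated in any source used here. Columns were matched to samples by genotype and lot number.

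In R 4.3.3, genes were kept with filterByExpr of edgeR 4.0.16 (minimum count 10, minimum total count 15), TMM set the scale, and the robust quasi-likelihood test of edgeR, without covariates, compared the genotypes; p-values were adjusted by Benjamini-Hochberg across every gene kept. Single-gene adjusted p-values come from this test. Each SE is approximate, the size of the log2 fold change divided by the root of its F statistic. Log2 CPM used a prior count of 2. Alternatives were DESeq2 1.42.0, other size factors, no filter, limma-trend (limma 3.58.1) on log2(TPM + 1) and log2(TPM + 0.1), the lot number as a block, and each library left out. The 8 genes and the lists were chosen with earlier results of these data known. Named genes are the 8, their nearest tested coding neighbours, set partners, the segment's borders, the 2 most similar genes elsewhere for 4 of the 8, and in each list the 2 called genes per direction with the smallest adjusted p. Results for a few genes that this rule names are not reported here. The lists share some genes, such as Klf4, Grhl3 and Trp63.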

Additional observations from a re-analysis of the deposited data

How the results depend on the processing

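Over 13 alternatives, the log2 fold change ran from 3.36 to 3.72 for Tmprss2, 2.31 to 2.41 for Ripk4, 1.76 to 1.98 for Synj1, 0.60 to 0.67 for Vps26c, 0.15 to 0.23 for Itsn1, 0.20 to 0.41 for Bace2, -0.34 to -0.18 for Hunk and -0.02 to 0.08 for Ttc3. Each of these values moved by less than the SD between replicates. Leaving 1 of 3 libraries out of a group can hardly move its mean by that much. For the left-out libraries the smaller movement therefore says little. Ttc3 was below 0 without Ts1Cje replicate 2 (-0.02) or wild-type replicate 1 (-0.02). The counts of called genes, over all genes, the other triplicated genes and each of the 7 lists, stayed within 1.5 times under all 13. Leaving out 1 library gave 6039 to 8042 called genes in all, and 41 to 48 of the other triplicated genes. Lot numbers are shared by the genotypes, and deviations of same-numbered libraries correlated at 0.22, 0.06 and 0.20. Libraries of unlike number correlated at -0.20 to 0.04. The main test did not take the lots as pairs, since no label says that they are, and these correlations do not settle it. With the replicate block 8326 genes were called in place of 7579, and every library correlated best with its own number. Upper-quartile factors lowered the median of all genes by 0.03. Depth limits Bace2 and the Tmprss relatives.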
